A study of Mus musculus with 6 samples.

Results

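The JAK-STAT and SOCS signalling genes described here are the 10 genes whose symbol in the deposited table is *Jak1*, *Jak2*, *Stat3*, *Stat5a*, *Stat5b*, *Stat6*, *Socs2*, *Socs3*, *Cish* or *Il6st*, out of 21367 genes listed. The genes were taken by name, as JAKs, STATs, their feedback genes and a receptor chain. RNA came from whole left kidneys of 3 *Ptpn6*+/mev mice and 3 wild-type littermates on a C57BL/6 background, all 7 weeks old, with 1 library per mouse. In every mouse the right kidney had been removed and the left pedicle clamped for 34 min, and the kidney was taken 24 h later, so both groups carry ischemia-reperfusion injury (IRI) and no uninjured kidney was analysed here. *Ptpn6* encodes the tyrosine phosphatase SHP-1, and the viable motheaten allele (mev) is a germline splice-site mutation, present in 1 copy and in all cells. The sample titles give the mutant group as Ptpn6+/mev and the genotype label calls it SHP1 knockdown. According to the paper, heterozygotes were used because homozygotes seldom live through the operation. In bulk tissue of this kind, fewer cells of a type and less RNA per cell cannot be told apart.

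In JAK-STAT signalling a cytokine or hormone brings its receptor chains together, the attached Janus kinases (JAKs) phosphorylate the receptor and the STAT proteins docked on it, and paired STATs enter the nucleus and bind DNA. Among the genes that STATs switch on are the SOCS genes, whose proteins block the receptor or the kinase and so close a feedback loop. SHP-1 removes phosphate from JAKs and receptors in blood cells, and in the injured kidney the IL-6 family acts through the shared receptor chain gp130, encoded by *Il6st*. Since STATs are switched on by phosphorylation, mRNA levels measure how much of each part is made, not how active it is.

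The sequences that bear on the values below are, first, stretches before and around the transcription start of *Cish* and *Socs3*, since these were the only members with a match to the STAT motif TTCNNNGAA in the promoter windows of RefSeq (GRCm38.p6). The windows run from 250 bases before a RefSeq start, 300 bases in all, and 11 windows covered 9 of the 10 genes. *Socs2* had no window and was not searched. Capitals mark the matches. The motif, N standing for any base, covers both strands because it is its own reverse complement. The *Cish* stretch lies on the plus strand at chr9:107296409-107296688, and the *Socs3* stretch on the minus strand at chr11:117969367-117969616.
Cish: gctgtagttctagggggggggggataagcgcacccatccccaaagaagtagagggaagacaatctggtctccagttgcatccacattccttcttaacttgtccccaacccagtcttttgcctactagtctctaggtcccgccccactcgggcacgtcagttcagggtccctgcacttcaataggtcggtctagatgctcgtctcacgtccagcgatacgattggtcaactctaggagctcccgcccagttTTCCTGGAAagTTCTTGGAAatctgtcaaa
Socs3: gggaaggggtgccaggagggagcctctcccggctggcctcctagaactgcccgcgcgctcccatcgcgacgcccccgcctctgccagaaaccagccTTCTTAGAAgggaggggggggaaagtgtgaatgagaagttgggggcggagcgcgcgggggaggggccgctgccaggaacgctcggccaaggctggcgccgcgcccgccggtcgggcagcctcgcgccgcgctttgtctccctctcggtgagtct
*Cish* held 2 matches, at chr9:107296659-107296667 and chr9:107296670-107296678, from base 1 and base 12 counted from the RefSeq start. *Socs3* held 1 match at chr11:117969512-117969520, which starts 154 bases before the RefSeq start. Both stretches lie inside the GENCODE spans given for these genes below, which begin further upstream. Counted from the GENCODE gene starts, the matches are therefore within the genes. Of 32851 promoter windows in all, 8.30% held the motif and 0.457% held it 2 or more times. The related motif with 1 more base in the spacer was in 0 of the 11 windows and in 6.95% of all windows. A match describes these letters only.

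The other sequence concerns *Stat5a* and *Stat5b*, neighbouring genes on chromosome 11 that encode near-identical STATs for growth hormone, prolactin and several interleukins. In the longest protein-coding transcript of each (GENCODE M21), coding sequences of 2382 and 2361 bases aligned over 2346 bases with 90.7% identity. The longest run of identical bases was 324, at positions 571 to 894 of both coding sequences, and its first 150 bases, the length of 1 read, are shown without capitals because every base is shared.
Stat5a and Stat5b: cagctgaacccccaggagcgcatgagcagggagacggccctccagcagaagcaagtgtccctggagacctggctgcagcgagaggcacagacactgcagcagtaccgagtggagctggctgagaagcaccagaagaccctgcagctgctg
A read that falls wholly in this run fits both genes equally well. The paper's Results give the reads as paired-end, and whether the mate of such a read lies outside the run was not looked at.

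Total counts were 10271590 to 10760551 in the *Ptpn6*+/mev libraries and 10788317 to 12361745 in the wild-type libraries, and 13036 genes, the 10 among them, had enough counts to be tested with the quasi-likelihood F-test of edgeR. Adjusted p-values (FDR) are Benjamini-Hochberg values over those 13036 genes. Wild-type replicate 2 stood apart from the other 5 libraries, at 53.9 on a first principal component that held 46.2% of the variance, against -17.5 to -3.76. It was the lowest or highest of the 6 libraries in CPM (counts scaled to library size) for 59.7% of tested genes and for 7 of the 10 members. The kidney origin was plain from its markers, with proximal tubule markers summing to between 827 and 1203 FPKM (fragments scaled to transcript length and library size) in each library. *Ptpn6* itself had means of 13.4 ± 1.42 FPKM in *Ptpn6*+/mev and 14.6 ± 3.38 FPKM in wild-type (SD, n = 3), with an edgeR log2 fold change of -0.19 (standard error, SE, 0.17; adjusted p = 0.715), or from -0.34 without wild-type replicate 2 to -0.06 without wild-type replicate 1. A splice-site allele still makes RNA that is counted, so this level does not check the labels.

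None of the 10 mRNA levels differed between the groups past the FDR threshold of 0.05. The quasi-likelihood test called 0 of 10, against 0.138% of all tested genes, and 0 of 10 were called by the exact test of edgeR (2.99% of all genes) and by DESeq2 (2.97%). An unadjusted p under 0.05 was found for 2 of 10, *Stat5a* and *Socs3*, both lower in *Ptpn6*+/mev, against 12.2% of all tested genes in either direction and 6.71% lower. Without wild-type replicate 2 these were 4 of 10, *Stat3*, *Stat5a*, *Socs3* and *Il6st*, all lower, against 17.2% of all genes, 8.89% lower. Without wild-type replicate 3 they were 2 others, *Socs2* and *Cish*, both lower, against 1077 of 13186 tested genes lower. Without wild-type replicate 1 there were 0, against 724 of 13184 genes lower. Without *Ptpn6*+/mev replicate 1 there was 1, *Socs3*, against 619 of 13200 genes lower. The log2 fold change was below 0 for 8 genes and above 0 for 2, with a median of -0.15 against 0.00 over all tested genes. The widest difference was -0.59 for *Cish*, or 1.51-fold. On the simulated data described in the processing section, the quasi-likelihood test recovered 16.1% of 1.5-fold changes. A call of 0 of 10 therefore does not show that the levels were equal.

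**Figure D1:**
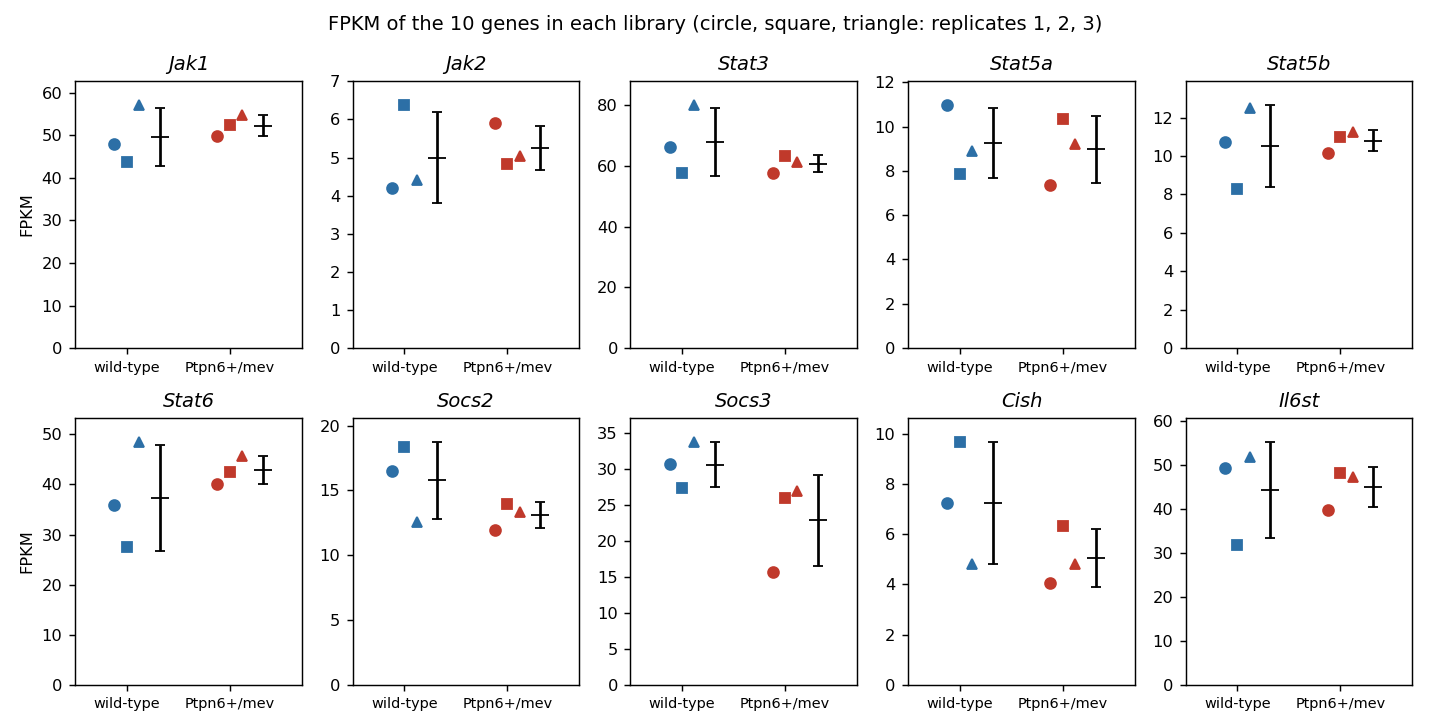
FPKM of each gene in each library, with wild-type in blue and Ptpn6+/mev in red, and with circles, squares and triangles for replicates 1, 2 and 3; black bars are the mean and SD of 3 mice. Only for Socs3 do all 3 Ptpn6+/mev libraries, at 15.7 to 27.0 FPKM, lie below all 3 wild-type libraries, at 27.5 to 33.8 FPKM.

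The levels of the 10 genes covered a wide range. In order of mean FPKM over the 6 libraries, *Stat3* stood first at 64.3 ± 8.35 (SD, n = 6), and its lowest library lay above the highest of *Jak1*, which followed at 50.9 ± 4.84. After *Jak1* came *Il6st* at 44.7 ± 7.51, *Stat6* at 40.1 ± 7.52, *Socs3* at 26.8 ± 6.15 and *Socs2* at 14.4 ± 2.47. The lowest were *Stat5b* at 10.65 ± 1.40, *Stat5a* at 9.11 ± 1.39, *Cish* at 6.15 ± 2.08 and *Jak2* at 5.13 ± 0.848. Apart from *Stat3* and *Jak1*, every gene's range over the libraries overlapped that of the next in this order.

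*Il6st*, on chromosome 13 from 112464070 to 112510086, encodes gp130, the signalling chain for IL-6, IL-11 and LIF. In the order of the replicate numbers, as throughout, the *Ptpn6*+/mev libraries measured 39.9, 48.1 and 47.4 FPKM and the wild-type libraries 49.5, 31.8 and 51.8 FPKM. The wild-type values enclosed all 3 *Ptpn6*+/mev values, because wild-type replicate 2 was the lowest of the 6. Means were 45.1 ± 4.55 and 44.3 ± 10.9 FPKM (SD, n = 3), and the edgeR log2 fold change was -0.06 (SE 0.16, adjusted p = 0.926). Without wild-type replicate 2 it was -0.23, with an adjusted p of 0.281 in edgeR.

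The kinases showed no difference beyond the spread between mice. *Jak1* (chromosome 4, 101152367 to 101265282), the kinase that serves gp130 and the interferon receptors, measured 49.8, 52.3 and 54.8 FPKM in *Ptpn6*+/mev and 48.1, 43.65 and 57.1 FPKM in wild-type. The ranges overlapped throughout, and the edgeR log2 fold change was 0.02 (SE 0.10, adjusted p = 0.968). *Jak2* (chromosome 19, 29251828 to 29313080), the kinase of the growth hormone, prolactin and erythropoietin receptors, measured 5.90, 4.82 and 5.04 FPKM in *Ptpn6*+/mev and 4.21, 6.37 and 4.41 FPKM in wild-type. Wild-type replicate 2 was the highest library for *Jak2* and the lowest for *Jak1*. The *Jak2* log2 fold change in edgeR was -0.01 (SE 0.20, adjusted p = 0.995).

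*Stat3* (chromosome 11, 100885098 to 100939540) is the main STAT downstream of gp130 and drives the acute-phase response. Its FPKM was 57.6, 63.2 and 61.3 in *Ptpn6*+/mev and 66.2, 57.6 and 80.0 in wild-type, and the ranges met in wild-type replicate 2. On the CPM scale, after edgeR's scaling between libraries, it was 246, 269 and 262 in *Ptpn6*+/mev and 295, 274 and 349 in wild-type. All 3 *Ptpn6*+/mev libraries then lay below all 3 wild-type libraries. In CPM 3 of the 10 members were apart in this way, *Stat3*, *Stat5a* and *Socs3*, against 9.8% of all tested genes lower and 19.4% in either direction. The edgeR log2 fold change was -0.24 (SE 0.11, adjusted p = 0.421). Leaving out wild-type replicate 3, the highest library, reduced it to -0.13.

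*Stat6* (chromosome 10, 127642986 to 127660957) carries IL-4 and IL-13 signals. It measured 40.2, 42.55 and 45.8 FPKM in *Ptpn6*+/mev and 35.9, 27.6 and 48.5 FPKM in wild-type, where the mice spread around the mutant values. The edgeR log2 fold change was 0.17 (SE 0.12, adjusted p = 0.638), and it was 0.05 without wild-type replicate 2.

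Between *Stat5a* (chromosome 11, 100859351 to 100885169) and *Stat5b* (chromosome 11, 100780731 to 100850724) the estimated counts were split. Both genes had fractional counts in the deposited table, yet their sum was a whole number, within 0.005, in all 6 libraries, at 756, 821 and 878 in *Ptpn6*+/mev and 921, 727 and 1143 in wild-type. In CPM, *Stat5a* was at 21.4, 23.0 and 23.9 in *Ptpn6*+/mev and at 31.1, 26.0 and 28.8 in wild-type. These groups did not overlap, and the edgeR log2 fold change was -0.33 (SE 0.12, adjusted p = 0.314). In FPKM, *Stat5a* was at 7.35, 10.35 and 9.21 in *Ptpn6*+/mev and at 10.96, 7.87 and 8.90 in wild-type, and these groups overlapped. The FPKM that 1 CPM of *Stat5a* was worth varied 1.43-fold between libraries, as for a transcript of 2.27 to 3.25 kb, so the scales disagree for this gene, and limma on log2(FPKM + 1) gave -0.04 (adjusted p = 0.944). *Stat6* varied 1.28-fold, *Socs2* 1.18-fold and the other 7 genes at most 1.04-fold. *Stat5b* measured 10.2, 10.97 and 11.2 FPKM in *Ptpn6*+/mev and 10.7, 8.28 and 12.5 FPKM in wild-type, an edgeR log2 fold change of -0.02 (SE 0.13, adjusted p = 0.966).

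Within the pair, *Stat5a* took 29.7, 29.6 and 30.04% of the counts in *Ptpn6*+/mev and 36.1, 36.4 and 31.3% in wild-type. All 3 *Ptpn6*+/mev shares lay below all 3 wild-type shares. When both genes were summed and fitted as 1 gene, an alternative chosen after seeing the data, the edgeR log2 fold change was -0.12 (SE 0.11, adjusted p = 0.735). The part that reads of the shared run played in this split was not tested. *Stat3* and *Stat5a* also share 72 exon bases on opposite strands, and *Stat6* shares 40 with *Nab2*. The library kit does not mark strand, so reads from those bases cannot be told apart.

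**Figure D2:**
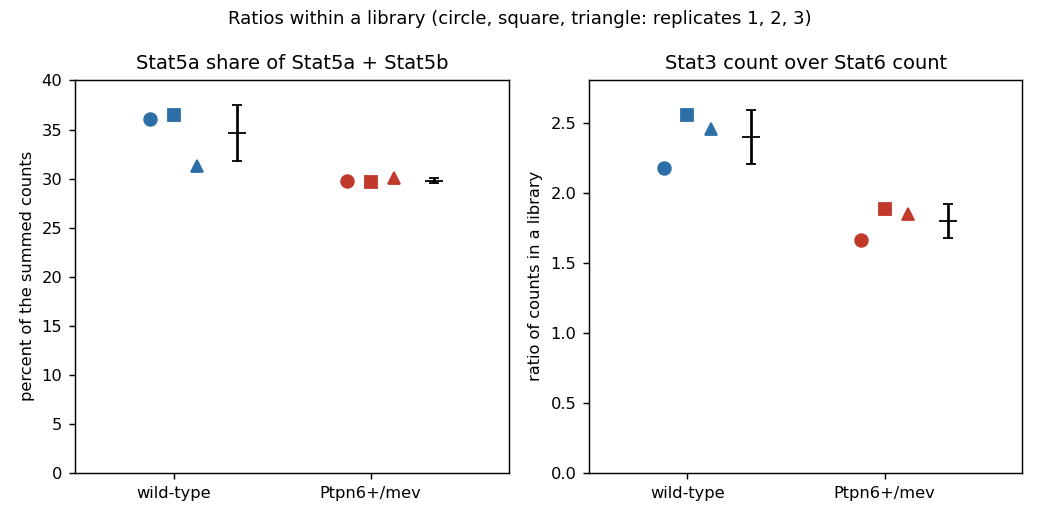
Ratios taken within a library, so that library size cancels, for wild-type (blue) and Ptpn6+/mev (red), with circles, squares and triangles for replicates 1, 2 and 3 and black bars for the mean and SD of 3 mice. Stat5a made up 29.6 to 30.04% of the pair in Ptpn6+/mev against 31.3 to 36.4% in wild-type, and Stat3 had 1.66 to 1.89 counts for each Stat6 count in Ptpn6+/mev against 2.18 to 2.55 in wild-type.

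Ratios between members do not depend on how libraries are scaled. Of the 45 pairs among the 10 genes, 11 (24.4%) had count ratios that did not overlap between the groups, and 19.6% of all pairs of tested genes did so. The members' share is thus near that of genes in general. One of them, *Jak1* to *Stat3*, chosen after its values were seen, had 0.972, 0.938 and 0.991 *Jak1* counts for each *Stat3* count in *Ptpn6*+/mev and 0.808, 0.819 and 0.799 in wild-type. The ratio of *Stat3* to *Stat6*, also picked after seeing it, was 1.66, 1.89 and 1.85 in *Ptpn6*+/mev and 2.18, 2.55 and 2.45 in wild-type.

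*Socs3* (chromosome 11, 117966079 to 117970047), the inhibitor that binds gp130 and its kinases, was the only member whose groups were apart in both FPKM and CPM. Its counts were 412, 691 and 743 in *Ptpn6*+/mev and 848, 772 and 1069 in wild-type. As FPKM these were 15.7, 26.05 and 27.0 against 30.7, 27.5 and 33.8, so every *Ptpn6*+/mev library lay below every wild-type library. *Socs3* was 1 of 10 members apart in this direction, against 6.38% of all tested genes, and 20.4% were apart in either direction. Means were 22.9 ± 6.28 and 30.6 ± 3.16 FPKM (SD, n = 3), and the edgeR log2 fold change was -0.49 (SE 0.19, adjusted p = 0.353). *Ptpn6*+/mev replicate 1 was far below the other libraries, and without it the log2 fold change was -0.28 with an adjusted p of 0.527 in edgeR. The gap between the highest *Ptpn6*+/mev and the lowest wild-type library was under 1 FPKM.

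*Cish* (chromosome 9, 107296026 to 107302784), a STAT5-induced inhibitor of the same family, measured 4.05, 6.32 and 4.81 FPKM in *Ptpn6*+/mev and 7.24, 9.67 and 4.81 FPKM in wild-type. Wild-type replicate 3 was level with *Ptpn6*+/mev replicate 3, so the groups overlapped. The means of 5.06 ± 1.16 and 7.24 ± 2.43 FPKM (SD, n = 3) gave the widest edgeR log2 fold change of the 10, -0.59, but also the largest SE, 0.29 (adjusted p = 0.463). Without wild-type replicate 2, the highest library, it was -0.29. *Cish* shares 479 exon bases with the antisense gene *Gm17041* and 261 with *Gm17040*, neither of them in the table, and reads from these stretches cannot be told apart without strand.

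*Socs2* (chromosome 10, 95385362 to 95417180), the SOCS protein that restrains growth hormone receptor signalling, measured 11.95, 13.9 and 13.35 FPKM in *Ptpn6*+/mev and 16.5, 18.3 and 12.5 FPKM in wild-type. As with *Cish*, wild-type replicate 2 was highest and wild-type replicate 3 fell among the mutants. The edgeR log2 fold change was -0.28 (SE 0.21, adjusted p = 0.656), and it was -0.11 without wild-type replicate 2 and -0.46 without wild-type replicate 3. Together the 8 SOCS family genes summed to 67.0, 80.3 and 80.4 FPKM in *Ptpn6*+/mev and to 86.8, 83.5 and 85.1 FPKM in wild-type. These sums did not overlap, but they include *Socs3*, whose groups were apart on its own. The 20.4% of single tested genes apart in FPKM is no reference for a sum. The sums of the 7 STAT genes, 123 to 138 against 119 to 162 FPKM, overlapped. So did those of the 4 JAK genes, 71.9 to 80.5 against 65.9 to 84.1 FPKM. *Socs3* made up 23.4, 32.4 and 33.5% of the SOCS sum in *Ptpn6*+/mev and 35.4, 32.9 and 39.7% in wild-type, and these shares overlapped.

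**Figure D3:**
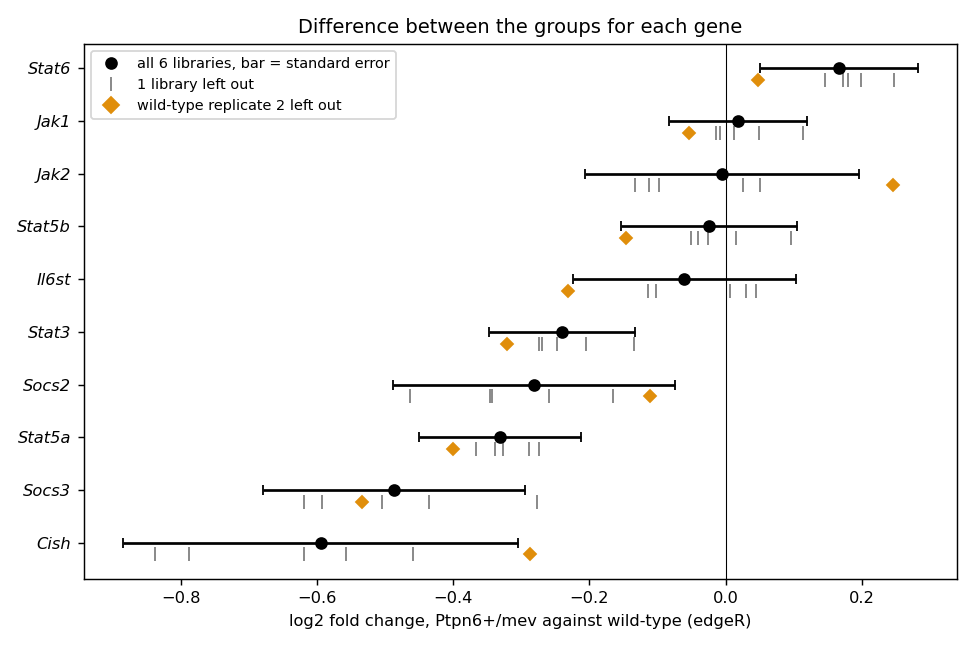
Log2 fold change of each gene, Ptpn6+/mev against wild-type, from edgeR; black points and bars are the estimate and its standard error, grey ticks the estimates with 1 library left out, and orange diamonds those without wild-type replicate 2. The estimates run from -0.59 for Cish to 0.17 for Stat6, and leaving out wild-type replicate 2 takes Jak2 from -0.01 to 0.25 and Cish from -0.59 to -0.29.

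Library by library, the members moved in different patterns. Wild-type replicate 2 was the lowest of the 6 libraries in CPM for 4 members, *Jak1*, *Stat5b*, *Stat6* and *Il6st* (30.2% of all genes), and the highest for 3, *Jak2*, *Socs2* and *Cish* (29.5%). In log2 CPM relative to the gene's own mean, it stood at -0.35 for *Il6st* and at 0.82 for *Cish*. *Ptpn6*+/mev replicate 1 was the lowest for 5, *Stat3*, *Stat5a*, *Socs2*, *Socs3* and *Cish* (16.9% of all genes), at -0.77 for *Socs3* and -0.57 for *Cish*. Markers of other cells moved with wild-type replicate 2 as well. The 6 endothelial markers summed to 79.2 FPKM there and to between 158 and 180 in the other libraries, and the 7 macrophage markers to 66.2 against between 107 and 139. Their part in the members' values was not tested.

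**Figure D4:**
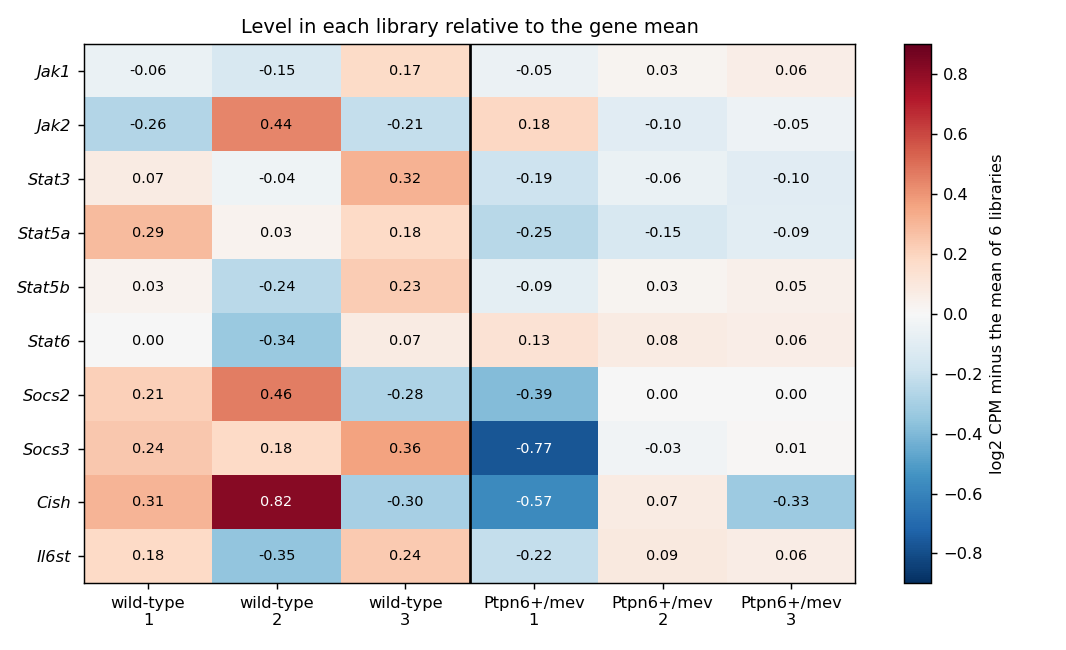
Log2 CPM of each gene in each library minus the gene's mean over the 6 libraries, red above and blue below the mean, with wild-type left of the line and Ptpn6+/mev right of it. Wild-type replicate 2 reaches 0.82 for Cish and -0.35 for Il6st, and Ptpn6+/mev replicate 1 reaches -0.77 for Socs3.

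Around the members, other genes of the pathway were read from lists of ligands, receptors, inhibitors and targets in the same fit. The quasi-likelihood test called none of them at an FDR under 0.05. Among the other JAK, STAT and SOCS genes, 9 of 10 were tested, 3 were lower at an unadjusted p under 0.05 (6.71% of all genes were) and none higher (5.53%). These were *Jak3*, the lymphoid kinase, at -0.41, *Stat2*, an interferon STAT, at -0.57, and *Socs1*, the interferon-induced inhibitor, at -1.02 on the log2 scale, with adjusted p of 0.347, 0.321 and 0.387 in edgeR. With 1 library left out the number of lower genes in the list ran from 0 to 3, with none when *Ptpn6*+/mev replicate 1 was dropped and 1 when *Ptpn6*+/mev replicate 2 or wild-type replicate 1 was. *Stat2* measured 4.84 to 6.20 FPKM in *Ptpn6*+/mev and 6.62 to 10.31 FPKM in wild-type, and *Socs1* 0.560 to 0.950 and 1.12 to 2.42 FPKM, both without overlap. Without wild-type replicate 2 the log2 fold change of *Stat2* was -0.31, and without wild-type replicate 1 that of *Socs1* was -0.61. *Jak3* and *Socs1* are expressed in lymphocytes, and the 8 lymphocyte markers, too low to be tested, summed to between 0.740 and 1.64 FPKM in *Ptpn6*+/mev and between 1.69 and 2.39 FPKM in wild-type. Their part in these values was not tested. The most abundant of this list were *Socs6* and *Tyk2*, at log2 fold changes of 0.18 and 0.08. *Socs6* measured 12.3 to 13.8 FPKM in *Ptpn6*+/mev and 9.17 to 11.1 FPKM in wild-type, but in CPM its groups overlapped, at 30.9 to 37.6 and 30.04 to 32.3.

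Of 8 ligands that signal through gp130, 5 were tested and 1, *Lif*, a cytokine of the IL-6 family, had an unadjusted p under 0.05, on the lower side (6.71% of all genes). It measured 1.86, 4.81 and 3.23 FPKM in *Ptpn6*+/mev and 6.93, 7.35 and 8.68 FPKM in wild-type, with every mutant library below every wild-type one. Its log2 fold change was -1.26 (SE 0.30) with an adjusted p of 0.137 in the quasi-likelihood test, 0.00504 by the exact test of edgeR and 0.0026 by DESeq2. *Clcf1*, another cytokine of that family, stood at 0.03. *Il6* was too low to be tested, at 0.58 FPKM or less in every library. None of the 6 partner receptors of gp130 reached an unadjusted p under 0.05, and the 2 most abundant, *Il11ra1* and *Lifr*, stood at -0.09 and -0.14 on the log2 scale, or with 1 library left out at -0.19 to -0.03 and at -0.20 to -0.08.

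Among 15 tested receptors of other JAK-linked families, 2 were lower (6.71% of all genes were) and 1 higher (5.53%) at an unadjusted p under 0.05. *Prlr*, the prolactin receptor, measured 0.660, 0.510 and 0.530 FPKM in *Ptpn6*+/mev and 3.55, 1.59 and 2.06 FPKM in wild-type, a log2 fold change of -1.55 (SE 0.32) with an adjusted p of 0.104 in the quasi-likelihood test and 0.00204 in the exact test of edgeR. *Ghr*, the growth hormone receptor and the most abundant of the list, stood at -0.41 (adjusted p = 0.196 in edgeR). *Ifngr2*, a chain of the interferon gamma receptor, measured 39.1, 39.4 and 40.0 FPKM in *Ptpn6*+/mev and 30.1, 23.1 and 34.25 FPKM in wild-type, with a log2 fold change of 0.37 (adjusted p = 0.253 in edgeR). *Il10rb*, next in abundance to *Ghr*, stood at 0.19. Proximal tubule markers, summed, were 827 to 967 FPKM in *Ptpn6*+/mev and 1107 to 1203 FPKM in wild-type. All 6 had a log2 fold change below 0, with a median of -0.42, and 3 were lower at an unadjusted p under 0.05 (6.71% of all genes were). At an FDR under 0.05 the quasi-likelihood test called 0 of these markers. The exact test called 2 of them lower (1.78% of all genes) and DESeq2 also 2 (1.88%). Without wild-type replicate 2 edgeR called 3 (1.8% of all genes in either direction). The part of these markers in the receptors' values was not tested. None of the 11 phosphatases and other inhibitors reached that p, and the most abundant, *Ptpn11*, which encodes SHP-2, and *Ptpn1*, stood at 0.07 and 0.10. *Ptpn11* ran from 0.025 to 0.10 with 1 library left out. In FPKM its groups were apart, at 41.3 to 42.1 in *Ptpn6*+/mev and 34.1 to 40.9 in wild-type (14% of all genes were apart in this direction). In CPM they overlapped.

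Of these shorter lists, the 17 STAT3 target genes held the largest number at an unadjusted p under 0.05. They are also the longest of these lists, so this ranks numbers and not shares. These were 6 of 17, all lower (6.71% of all genes were), in a list drawn up with earlier results of these data known. Of the 17, 13 had a log2 fold change below 0, and the median was -0.15. With 1 library left out 5 or 6 of the 17 were lower at that p, and the median was -0.34 when this was wild-type replicate 2 and -0.07 when it was *Ptpn6*+/mev replicate 1. *Fga*, a fibrinogen chain of the acute-phase response, measured 145, 180 and 165 FPKM in *Ptpn6*+/mev and 245, 358 and 374 FPKM in wild-type, groups well apart. Its log2 fold change was -1.07 (SE 0.17), with an adjusted p of 0.0685 in the quasi-likelihood test, 2.05e-05 by the exact test of edgeR and 4.56e-06 by DESeq2. The other fibrinogen chains *Fgb* and *Fgg* lie beside it on chromosome 3, between positions 83007724 and 83049863, and stood at -0.94 and -0.90 (adjusted p = 0.122 and 0.16 in edgeR). *Lrg1*, a secreted glycoprotein of the acute phase, measured 17.0, 19.2 and 20.4 FPKM in *Ptpn6*+/mev and 39.1, 32.25 and 28.0 FPKM in wild-type, a log2 fold change of -0.88 (SE 0.15, adjusted p = 0.074 in edgeR). *Vegfa*, the vascular growth factor, stood at -0.34 (adjusted p = 0.16 in edgeR). *Icam1*, an adhesion molecule, was also at -0.34, or -0.22 without *Ptpn6*+/mev replicate 1. Its groups overlapped in FPKM but not in CPM, at 45.5 to 61.9 in *Ptpn6*+/mev and 62.5 to 76.4 in wild-type. The exact test called 4 of the 17 (1.78% of all genes were called lower) and DESeq2 called 5 (1.88%), all of them lower, and *Fga* and *Lrg1* also passed in edgeR when wild-type replicate 2 was left out (1.8% of all genes were called then), with adjusted p of 0.0231 and 0.0287. *Fga* also passed in edgeR without wild-type replicate 1 (0.0335) and with no filter on low counts (0.0448), and *Lrg1* without wild-type replicate 3 (0.0319). When a *Ptpn6*+/mev library was left out, the adjusted p of edgeR was 0.148 to 0.369 for *Fga* and 0.174 to 0.369 for *Lrg1*. *Lcn2*, the most abundant of the list and also a marker of tubular injury, ranged from 962 to 2269 FPKM with the groups overlapping. Of the 6 tubular injury markers, 4 were higher in *Ptpn6*+/mev at an unadjusted p under 0.05 in edgeR, against 5.53% of all genes, and these 4 had groups apart in FPKM in that direction, against 14% of all genes. None of the 6 passed an FDR under 0.05 in the quasi-likelihood test, while the exact test called 1 and DESeq2 called 2, all higher, and the median log2 fold change was 0.28. Their sum ranged from 3501 to 4644 FPKM in *Ptpn6*+/mev and from 2862 to 4019 FPKM in wild-type, and their part in the targets' values was not tested.

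Several of these targets are also made by the liver. *Alb*, the albumin gene, picked after its values were seen, was at 1.81, 1.7 and 2.23 FPKM in *Ptpn6*+/mev and at 3.68, 6.29 and 5.35 FPKM in wild-type. The sums of the 4 hepatocyte markers overlapped, at 33.5 to 44.4 FPKM against 34.8 to 49.8 FPKM. Of the 3 tested, 2 were lower at an unadjusted p under 0.05 (6.71% of all genes were). The exact test called 1 of them and DESeq2 called 2 at an FDR under 0.05. The other tested marker went the other way, at a log2 fold change of 0.31. The part of the hepatocyte markers in the targets' values was not tested. For STAT5, 4 of 5 targets were tested and none reached an unadjusted p under 0.05, with *Bcl6* at -0.34 and *Pim1* at 0.31. The list's median of -0.13 ran from -0.50 without wild-type replicate 2 to 0.17 without wild-type replicate 1. Without wild-type replicate 2, 2 of the 4 were lower at an unadjusted p under 0.05 (8.89% of all genes were). With 1 library left out *Bcl6* ran from -0.55 (without wild-type replicate 2) to -0.17 (without wild-type replicate 1), and *Pim1* from 0.12 (without wild-type replicate 2) to 0.50 (without wild-type replicate 3). None of the 5 tested STAT6 targets did either, with *Chil3* at 0.43, or 0.18 without *Ptpn6*+/mev replicate 3 and 0.77 without replicate 1, and *Il4ra* at 0.01.

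**Figure D5:**
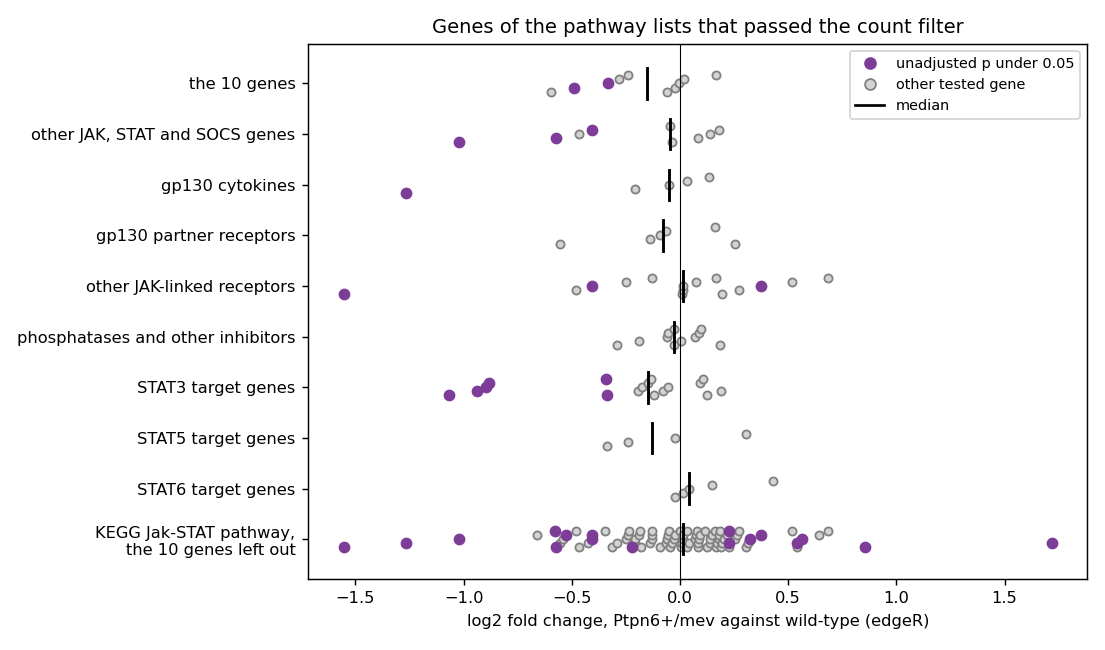
Log2 fold change, Ptpn6+/mev against wild-type, of each tested gene in the pathway lists; purple points have an unadjusted p under 0.05 in edgeR, grey points do not, and black bars are list medians. The medians lie between -0.15 and 0.04, and the STAT3 targets hold 6 purple points, all below 0. With 1 library left out some medians turn. Without wild-type replicate 2 they are -0.22 for STAT6 targets, -0.27 for gp130 ligands and -0.10 for other receptors. They reach 0.27 and 0.15 for STAT6 targets and other receptors without Ptpn6+/mev replicate 1, and 0.15 for gp130 ligands without wild-type replicate 3.

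The deposited table assigns 157 genes to the KEGG Jak-STAT pathway, the 10 members and 147 others. Of those others 87 were tested, and at an unadjusted p under 0.05 in edgeR 8 were higher (5.53% of all genes were) and 9 lower (6.71%), with a median log2 fold change of 0.01. The lower genes numbered 5 without *Ptpn6*+/mev replicate 1 or replicate 2 and between 7 and 10 without any 1 of the other libraries. The quasi-likelihood test called 0 at an FDR under 0.05, while the exact test and DESeq2 each called 5 of 87 (2.99 and 2.97% of all genes), which were *Prlr*, *Lif* and *Pik3r1* among the lower and *Il24* and *Ccnd1* among the higher. *Il24*, a cytokine of the IL-10 family, measured 4.35, 6.23 and 4.55 FPKM in *Ptpn6*+/mev and 1.75, 1.02 and 1.6 FPKM in wild-type, a log2 fold change of 1.72 (SE 0.29, adjusted p = 0.0711 in the quasi-likelihood test of edgeR). *Pik3r1*, the regulatory subunit of PI3-kinase, was at 15.8, 23.2 and 22.1 FPKM against 35.7, 27.7 and 38.4 FPKM, a log2 fold change of -0.58 (adjusted p = 0.178 in edgeR). *Il5ra*, the interleukin-5 receptor chain, stood at 0.86 (adjusted p = 0.281 in edgeR), at 1.24 FPKM or less.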

How the data were processed

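Poly-A mRNA of 6 mouse kidneys was sequenced as 150-base reads, which the paper's Results give as paired-end. The authors trimmed the reads, mapped them with TopHat on GRCm38.p5 and computed FPKM with Cufflinks. The submitters' processing notes name Bowtie2, TopHat2 2.0.3.12, Cufflinks and RSEM. The deposited table gives estimated counts and FPKM for each gene in each library, and the tool behind the counts is not given in the sources used here. Rounded counts went into edgeR 4.0.16 (R 4.3.3), with TMM scaling, filterByExpr, the quasi-likelihood F-test and Benjamini-Hochberg adjustment. Standard errors are the log2 fold change divided by the square root of F. By the numbered labels, 1 library is 1 mouse, and libraries of a group differed by more than counting noise (chi-square per degree of freedom 6.49 to 45.4). Levels and their overlap were read from FPKM. The 15 alternatives were DESeq2's size factors, upper quartile factors, DESeq2 1.42.0, edgeR's exact test, no filter, at least 10 counts in every library, limma 3.58.1 on log2(FPKM + 1) or log2(FPKM + 0.1), a block by replicate number, and each library left out. On simulated data with 13036 genes and 200 changed ones, the quasi-likelihood test recovered 16.1% of 1.5-fold, 65.7% of 2-fold and 95.6% of 4-fold changes, with 9.02% false calls. False calls were 21.7% for the exact test and 18.0% for DESeq2. The members and lists were chosen with earlier results of these data known. Named genes were the members, *Ptpn6*, and in each list those at an FDR under 0.05, those at an unadjusted p under 0.05 with groups apart in FPKM, and the 2 most abundant. From the KEGG pathway outside the lists, the 3 largest such differences with a higher mean of at least 1 FPKM were added. *Jak3*, *Icam1*, *Il6*, *Alb* and *Ccnd1* were named after their values were seen, and a gene that the rule would name is not reported here. Positions of genes are from GENCODE M21, and those of the promoter stretches follow the RefSeq starts.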

Additional observations from a re-analysis of the deposited data

How the results depend on the processing

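No member passed an FDR under 0.05 in any of the 15 alternatives, and of 150 member values 131 kept their direction and 19 turned, none of them past the threshold. Members at an unadjusted p under 0.05 were 2 in edgeR, 3 in DESeq2 (*Cish* the added one, at 0.0499), 0 with limma on FPKM at either pseudocount, and 0 to 4 with 1 library left out: 1 without *Ptpn6*+/mev replicate 1 (*Socs3*), 0 without wild-type replicate 1 and 4 without wild-type replicate 2 (*Stat3*, *Stat5a*, *Socs3* and *Il6st*). Without wild-type replicate 3 they were also 2, but *Socs2* and *Cish* in place of *Stat5a* and *Socs3*. For the left-out libraries named here, the level over all tested genes stands beside these counts in the Results. Members with groups apart were 1 in FPKM, 3 in CPM and 1 to 5 with 1 library left out, 4 without wild-type replicate 2 (35.4% of all tested genes were apart) and 5 without wild-type replicate 3 (34.0%). Genes of the KEGG pathway called were 0 in edgeR's quasi-likelihood test, 5 in DESeq2, 5 in the exact test and 0 to 2 with 1 library left out, the 2 without wild-type replicate 2. With 1 library left out, log2 fold changes ran from -0.054 to 0.11 for *Jak1*, -0.13 to 0.25 for *Jak2*, -0.15 to 0.10 for *Stat5b*, -0.23 to 0.045 for *Il6st*, -0.029 to 0.16 for *Tyk2*, -0.087 to 0.15 for *Clcf1*, -0.0036 to 0.18 for *Ptpn1*, -0.47 to 0.26 for *Lcn2* and -0.18 to 0.14 for *Il4ra*. *Jak2* also turned with upper quartile factors (0.0011) and limma (0.0745 and 0.0903), *Stat5b* (0.0506 and 0.0564), *Il6st* (0.0515 and 0.0532) and *Lcn2* (0.0021 in both) with limma. With limma on FPKM the median over all genes was 0.06 and 0.08. The cause of these turns was not tested. Libraries with the same replicate number did not correlate positively across genes in their deviations from the group means, at -0.14, -0.18 and -0.13. Deviations from the mean of so few libraries constrain one another, so these values cannot settle whether mice were paired. With the number as a block, *Jak2* stood at 0.0224, 2 members (*Socs3* and *Cish*) were at an unadjusted p under 0.05, and 1 gene in all was called, against 18. In all, 237 genes were called without wild-type replicate 2.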

Other observations

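Of the 147 KEGG Jak-STAT pathway genes beside the members, 34 were listed at 0 FPKM in all 6 libraries. Among them were the cytokines *Il4*, *Il13*, *Il10* and *Il22*, the hormone genes *Epo*, *Gh* and *Prl*, and most interferon alpha genes.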
